A study of Mus musculus with 8 samples.

Results

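Auts2 held more regions of raised 5-hydroxymethylcytosine signal after loss of OGT than any other protein-coding gene in mouse embryonic stem cells. The deposited data are 2 lists of positions called by the authors as higher or as lower in the knockout, and a region was assigned to Auts2 when its midpoint fell in the gene's span extended by 1 kb at both ends. That span is chromosome 5, 131437333 to 132543220 (mm10), 1105.888 kb long. Of 12594 regions in both lists, 17 met this rule: 16 of the 8578 higher regions and 1 of the 4016 lower regions. The gene was chosen by its number of higher regions in these same lists, so its counts, directions, widths and spacing are given as a description, with no test.

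All cells carried floxed Ogt alleles (Ogt fl/fl) and were grown over mitomycin C-treated embryonic fibroblast feeders with LIF. The knockout, Ogt iKO, was made by 6 days of 4-hydroxytamoxifen (4-OHT), and control cells were grown without 4-OHT. Viable stem cells were separated from feeders by flow sorting, and the treated cells were also selected for YFP, a step the untreated cells did not share. Each condition gave 2 CMS-IP libraries and 2 input libraries, 8 samples in all. CMS-IP recovers DNA fragments that carry 5-hydroxymethylcytosine with an antibody raised against its bisulfite product. The lists give a chromosome, a start and an end for each region and no value per sample, so neither the depth of the libraries nor the spread between replicates is known here. Levels of stem cell or fibroblast marker genes were not analysed here.

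TET enzymes oxidise 5-methylcytosine to 5-hydroxymethylcytosine, an intermediate of DNA demethylation that in embryonic stem cells is found in gene bodies and at enhancers. OGT, which attaches N-acetylglucosamine to nuclear and cytoplasmic proteins, binds TET proteins. Auts2 encodes a nuclear and cytoplasmic protein of the developing nervous system. In the nucleus it joins a Polycomb repressive complex that contains PCGF3 or PCGF5, together with the kinase CK2 and the acetyltransferase p300, and in the cytoplasm it acts on Rac signalling. Auts2 is transcribed towards lower coordinates, which is background knowledge, since the gene table used here gives no strand; positions are therefore counted from the lower-coordinate end.

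**Figure D1:**
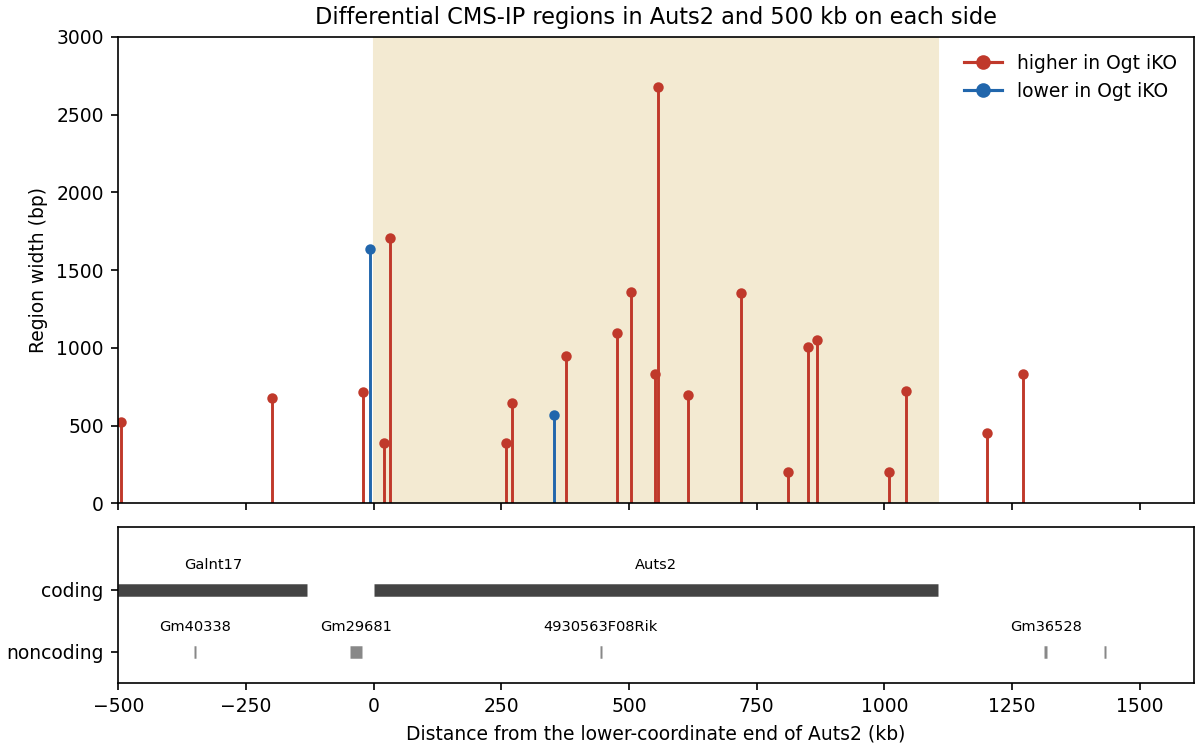
Position and width of differential CMS-IP regions in Auts2 (shaded) and in the 500 kb on each side. The x axis is the distance in kb from the lower-coordinate end of Auts2, each vertical line is 1 region, and its height is the region's width in bp; the lower panel shows coding and noncoding genes. The 16 higher regions in the gene (red) run from 21.0 to 1042.6 kb, and the only lower region inside it (blue) lies at 352.6 kb; a second lies just outside.

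At the lower-coordinate end of the gene, 2 higher regions formed a pair. The first spanned 385 bp (131458182 to 131458566), with its midpoint 21.0 kb inside the gene. The second spanned 1706 bp (131468861 to 131470566) at 32.4 kb, and 837 of the 8578 higher regions were wider. A gap of 10.3 kb separated them, and the next 226.4 kb of the gene held no region of either list, the longest such stretch between its higher regions. A second pair followed this gap, made of a region of 388 bp (131696982 to 131697369) at 259.8 kb and one of 648 bp (131707416 to 131708063) at 270.4 kb. The gap between them was 10.05 kb, slightly shorter than that of the first pair.

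The single lower region spanned 566 bp (131789623 to 131790188) at 352.6 kb, 31.9% of the way along the gene. It had higher regions on both sides, 81.6 kb before it and 22.5 kb after it. It was wider than 71.9% of the lower list, and so was not among its narrow regions. It was the only lower region and lay between higher ones. Of 16 pairs of neighbouring regions in the gene, only the 2 that included it could therefore be of opposite direction.

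Beyond the lower region, 10 higher regions lay within 492.4 kb, the most in any 500 kb of the gene. This stretch opened with a region of 950 bp (131812706 to 131813655) at 375.8 kb. The noncoding gene 4930563F08Rik, which lies inside Auts2, followed at 131880269 to 131883768. It held no region, and the nearest one started 29.2 kb beyond it.

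Next came a region of 1097 bp (131912941 to 131914037) at 476.2 kb and one of 1356 bp (131941370 to 131942725) at 504.7 kb. The midpoint of the gene held its closest pair, 4.24 kb apart. One of these regions spanned 830 bp (131987142 to 131987971), and the other spanned 2677 bp (131992209 to 131994885). The latter, at 556.2 kb, was the widest region in Auts2, and 256 of the 8578 higher regions were wider.

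The remaining higher regions were spread over the upper-coordinate part. They began with 699 bp (132052609 to 132053307) at 615.6 kb and 1353 bp (132156638 to 132157990) at 720.0 kb. A group of 3 followed, from 73.3 to 78.4% of the way along the gene. It was made of 200 bp (132248073 to 132248272), 1004 bp (132286962 to 132287965) and 1051 bp (132304032 to 132305082), at 810.8, 850.1 and 867.2 kb. The second longest gap between the higher regions, 141.9 kb, came after them.

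The last pair in the gene lay near its upper-coordinate end. It consisted of a region of 200 bp (132447002 to 132447201) at 1009.8 kb and one of 722 bp (132479616 to 132480337) at 1042.6 kb. The latter was 63.2 kb from the upper-coordinate end, where transcription starts. No region of either list lay within 1 kb of either gene end.

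The higher regions were thus spread over the length of the gene. There were 8 on each side of the gene's midpoint. Of 10 equal parts of 110.6 kb, 8 held at least 1 higher region and none held more than 3; the second and the ninth held none. The 15 gaps between them had a median of 44.4 kb, with quartiles of 21.7 and 101.3 kb. On all of chromosome 5, the median gap between higher regions was 138.7 kb over 563 gaps. The shorter median gap in Auts2 goes with the number of higher regions by which the gene was chosen and is not a separate result. A gap over 100 kb occurred 4 times in Auts2, so the regions did not form 1 block.

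Higher regions in Auts2 were wider at the median than higher regions elsewhere. Their median width was 890 bp (16 regions, range 200 to 2677 bp), against 541.5 bp in the whole higher list and 495.5 bp for the 160 higher regions of other coding genes of similar length. A width of 1 kb or more was reached by 7 of the 16, or 43.8%, against 23.5% of the higher list. Only 1 of the 16 reached 2 kb, against 588 of the 8578 in that list. At the narrow end, 2 of the 16 had the minimum width of the lists, 200 bp, a share of 12.5% against 13.9% of the higher list. Together the 16 covered 15.3 kb, which is 1.38% of the extended span. The share covered was 0.300% on chromosome 5.

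**Figure D2:**
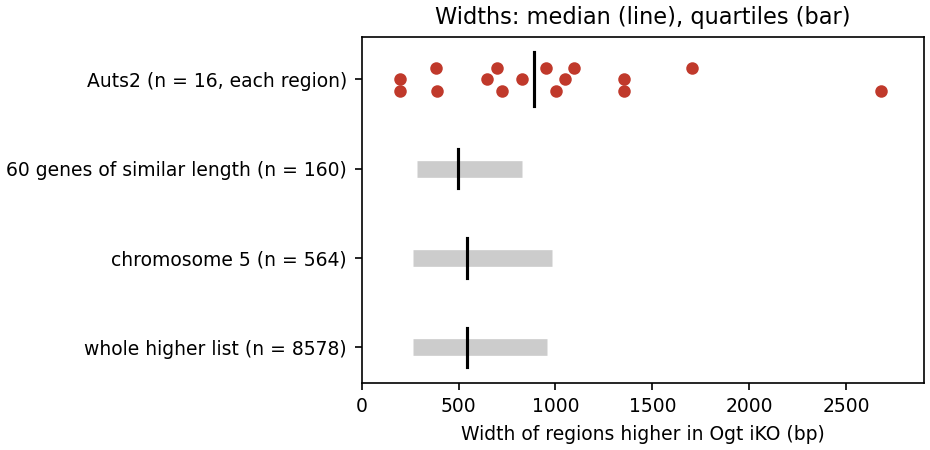
Width in bp of regions higher in Ogt iKO. Each red point is 1 of the 16 Auts2 regions, black lines are medians and grey bars run from the lower to the upper quartile of the 160 higher regions in 60 genes of similar length, the 564 on chromosome 5 and the 8578 of the whole list. The Auts2 median of 890 bp lies above the other 3 medians, and its points reach from 200 to 2677 bp.

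The density of higher regions was 14.4 per Mb in Auts2. Chromosome 5 held 3.79 higher regions per Mb and the autosomes 3.56, so Auts2 was 3.81 times as dense as its chromosome. It held 2.84% of the chromosome's 564 higher regions on 0.745% of its annotated span. Lower regions did not share this density: 0.903 per Mb in Auts2 compared with 1.69 per Mb on chromosome 5, although the value for Auts2 rests on 1 region. Other coding genes of similar length held 0.970 lower regions per Mb, close to the value of Auts2. Of all regions in the gene, 94.1% were higher (16 of 17), against 69.2% on chromosome 5. The share was 72.1% in the genes of similar length and 83.3% of the 6 regions in the 500 kb flanks. Both the density and the share in Auts2 go with the number of higher regions by which the gene was chosen. They are not separate results, and Sox5 held 14 higher and 0 lower regions.

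The sequence next to the gene held fewer. In the 500 kb below Auts2, 3 higher and 1 lower regions were listed, and in the 500 kb above it 2 higher and 0 lower regions. The flanks together held 5.01 higher regions per Mb, between the values of the gene and of the chromosome. Auts2 was 2.88 times as dense as these flanks, and 1.80 times as dense as flanks of 250 kb.

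Closest to the gene, but outside it, was a lower region of 1638 bp at 131429366 to 131431003, which ended 6.33 kb below the lower-coordinate end. It was wider than the lower region inside the gene. A higher region of 716 bp (131416733 to 131417448) lay 19.9 kb below the gene. This opposite pair stood between Auts2 and the noncoding gene Gm29681, which lay 22.6 kb below Auts2. Gm29681 itself held no region within 1 kb.

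On the far side of Gm29681 lies Galnt17, which encodes a polypeptide N-acetylgalactosaminyltransferase. It spans 433.2 kb, ended 129.8 kb below Auts2 and held 2 higher regions and no lower one. These spanned 674 bp at 131237122 to 131237795 and 520 bp at 130941755 to 130942274. Galnt17 thus held 4.60 higher regions per Mb, below the density of Auts2.

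Above Auts2 there was no coding gene for 1556.5 kb, up to Castor2. The higher regions there spanned 454 bp (132638883 to 132639336) and 832 bp (132708245 to 132709076), 95.7 and 165.0 kb from the gene. Beyond them the next region of either list was a lower one, 1139.8 kb from Auts2. The noncoding gene Gm36528 and the small nucleolar RNA gene LOC115490285 in this flank held no region.

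The start of Gm29681 is shown because it is the annotated start nearest to the regions just below Auts2. The window runs from 250 bases before to 50 after the start, from RefSeq on GRCm38.p6, at chr5:131414669-131414968 on the minus strand. Capitals mark the CpG dinucleotide (CG, which reads the same on both strands), the main site of cytosine methylation in mammals. 
Gm29681: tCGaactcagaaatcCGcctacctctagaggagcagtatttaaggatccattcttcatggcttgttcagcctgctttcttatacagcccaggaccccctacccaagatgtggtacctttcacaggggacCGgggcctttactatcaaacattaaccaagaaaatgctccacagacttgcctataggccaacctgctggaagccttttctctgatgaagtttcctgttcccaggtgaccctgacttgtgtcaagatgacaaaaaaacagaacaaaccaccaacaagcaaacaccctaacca
It holds 3 CpG, against a median of 7 over 32851 windows of this length, of which 94.6% hold at least 1. The higher region of 716 bp begins 1764 bp upstream of this window.

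Other coding genes of this length held fewer regions. Of the 60 other coding genes with a span 0.8 to 1.2 times that of Auts2, 42 (70.0%) held at least 1 higher region and 30 (50.0%) at least 1 lower region. Their median was 2 higher regions, with quartiles of 0 and 4 and a maximum of 14. A total of 16 of the 60 held no region of either list. None of the 60 reached the 16 higher regions of Auts2, which follows from its choice as the gene with most. Among the 60, 3 held 10 or more. Higher regions outnumbered lower ones in 34 of these genes and lower outnumbered higher in 6.

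The 5 next shorter and 5 next longer coding genes held between 0 and 7 higher regions. Next shorter were Anks1b with 3 higher and 2 lower regions, and Ctnna2, the alpha-catenin of neurons, with 0 of either. Dcc, a netrin receptor, held 2 higher regions, as did the acid-sensing channel gene Asic2, and the growth factor gene Nrg1 held 4. These last 3 held no lower region. Next longer were Frmpd4, on the X chromosome, and Nrg3, both with 0 of either list. Dab1, an adaptor of reelin signalling, held 7 higher and 2 lower regions, the most among the 10. Opcml, a cell adhesion gene, held 1 of each, and Kcnip4, a potassium channel subunit gene also on chromosome 5, held 1 higher region.

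**Figure D3:**
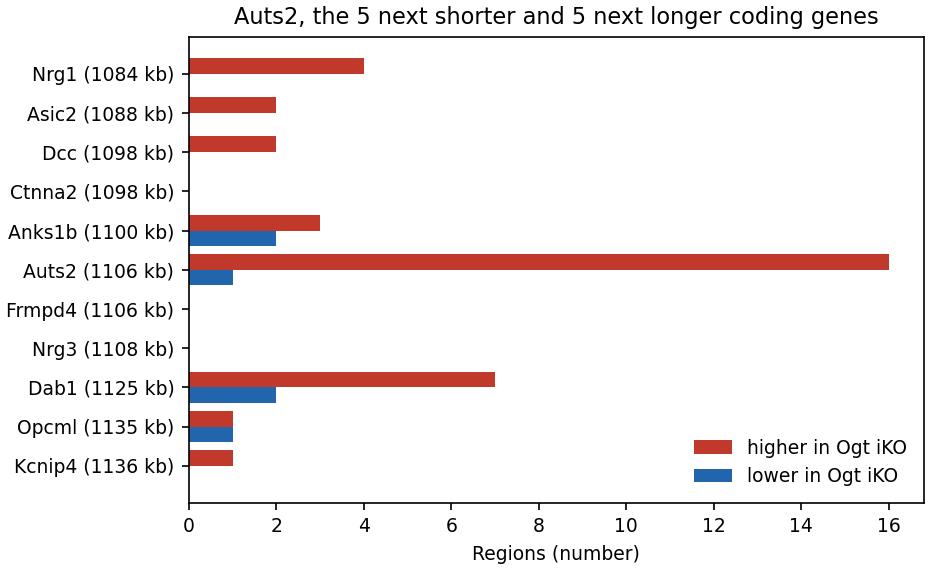
Number of regions higher (red) and lower (blue) in Ogt iKO in Auts2 and in the 5 next shorter and 5 next longer coding genes, with span lengths in kb. Auts2 holds 16 higher regions, and the 10 others hold 0 to 7.

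The genes of similar length with most regions, beside Auts2, included Cdh13 (12 higher and 4 lower) and Sox5 (14 higher and 0 lower). Cdh13 encodes a cadherin without a cytoplasmic domain and Sox5 a SoxD transcription factor. Of the 43 coding genes longer than Auts2, 30 held a higher region and none more than 12. Auts2 is the 44th longest coding gene of 21774, first in higher regions and, with 1 lower region, 1 of 1592 coding genes with that number of lower regions.

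Relative to length, Auts2 was not the densest gene. Among 227 coding genes of 500 kb or longer, of which 166 (73.1%) held a higher region and 116 (51.1%) a lower one, it ranked 2 in higher regions per Mb. Sox5 ranked first with 14.6 per Mb. The median of the 227 genes was 1.93 per Mb and the upper quartile 4.38. In lower regions per Mb, Auts2 ranked 108, and the 227 genes had a median of 0.608. By total sequence covered by higher regions in these 227 genes, Auts2 ranked first with 15.3 kb, and by the share of the span covered it ranked 4. Pard3 (2.02%), Grip1 (1.91%) and Tenm4 (1.62%) lay above its 1.38%.

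Likeness to Auts2 was measured over the 2 lists as the sum of the absolute differences in higher and in lower regions per Mb, among 61 other genes of 500 kb or longer with 5 or more regions. The nearest were Grip1, Sox5 and Cdkal1, with sums of 0.961, 1.11 and 1.53 per Mb, followed at a distance by Syt1 (3.70) and Pard3 (4.46). Grip1, which encodes a scaffold protein of glutamate receptors, held 9 higher regions and 1 lower region in 634.0 kb. Cdkal1, a tRNA-modifying enzyme, also held 9 and 1, in 663.9 kb. Syt1, a calcium sensor of synaptic vesicles, and Pard3, a cell polarity protein, held 6 higher regions each.

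Median gaps between higher regions were 37.8 kb in Grip1, 36.4 kb in Sox5 and 48.6 kb in Cdkal1, against 44.4 kb in Auts2. They were longer in Syt1 (65.0 kb) and Pard3 (75.7 kb). These genes were picked for their regions per Mb, with which gaps go, so the gaps are not a separate likeness. Sox5 regions were narrow, with a median of 462.5 bp and a maximum of 837 bp, whereas 8 Auts2 regions were wider than that maximum. Median widths were 917 bp in Cdkal1 and 987 bp in Pard3, above the 890 bp of Auts2, and 552 bp in Grip1 and 627 bp in Syt1, below it.

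**Figure D4:**
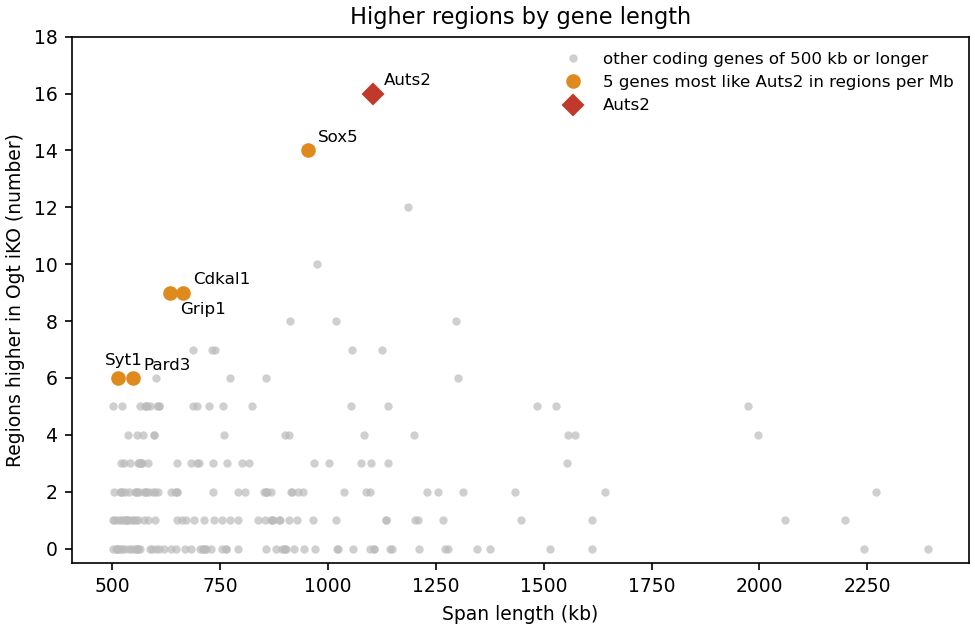
Number of regions higher in Ogt iKO (y axis) against span length in kb (x axis) for coding genes of 500 kb or longer; 1 of the 227 is not plotted. Auts2 (red diamond) is highest with 16, Sox5 follows with 14, and genes longer than Auts2 hold at most 12.

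Windows of the same length as the extended gene were laid side by side along the autosomes as a further background. The 2159 windows held a median of 4 higher regions, with quartiles of 1 and 6 and a maximum of 16. That maximum was reached in 3 windows, on chromosomes 6, 11 and 14. The window on chromosome 6 overlapped 1 coding gene, Sox5, whereas those on chromosomes 11 and 14 overlapped 17 and 18. The window with most of Auts2 held 14 higher regions, as its borders do not match those of the gene. The number in Auts2 was thus at the upper end for single genes and was matched by 3 windows of equal length elsewhere. It was counted on the gene's own borders, so it is not directly comparable with windows laid without regard to genes.

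Genes for proteins known to work with AUTS2, and for its paralogs, were examined next and are together called partners. Of these 19 genes, 10 held a higher region and 2 of the 10 also a lower one. Among all coding genes, 15.3% held a higher and 8.51% a lower region. The partners are longer than most genes, with a median of 45.7 kb against 17.2 kb. Among the 8549 coding genes of 20 to 150 kb, a range chosen after the values had been seen, 23.7% held a higher region, and 8 of the 15 partners in that range did.

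Of the paralogs, Fbrs held 1 higher region of 200 bp (chromosome 7, 127482797 to 127482996), and Fbrsl1 held none. Among 10 genes of Polycomb and CK2 subunits, 4 (40%) held a higher region, against 15.3% of all coding genes. Of these 4, 2 also held a lower region, which 8.51% of all coding genes held. The 10 genes had a median length of 44.2 kb, against 17.2 kb for all coding genes. Pcgf5, whose product is a defining subunit of the Polycomb complex that AUTS2 joins, held a higher region of 3711 bp (chromosome 19, 36404982 to 36408692). This was wider than any region in Auts2. Its counterpart Pcgf3 held a higher region of 1382 bp (chromosome 5, 108468704 to 108470085).

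Rybp, which encodes a subunit that binds the RING proteins, held regions of both directions. The higher one spanned 1057 bp (chromosome 6, 100245938 to 100246994) and the lower one 215 bp (100273356 to 100273570). Csnk2a1, the gene of a catalytic CK2 subunit, was the only partner with more lower than higher regions. Its lower regions spanned 248 bp (chromosome 2, 152225491 to 152225738) and 650 bp (152230607 to 152231256), and its higher region 200 bp (152258871 to 152259070). The first of the lower regions lay within 1 kb outside the gene's lower-coordinate end. The other 6 genes of this group, Rnf2, Ring1, Yaf2, Csnk2a2, Csnk2b and Dcaf7, held no region.

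The coactivator gene Ep300 held a higher region of 244 bp (chromosome 15, 81602291 to 81602534). Nrf1, a transcription factor that brings AUTS2 to chromatin, held one of 550 bp (chromosome 6, 30060909 to 30061458). Of the 5 cytoskeletal partners, 3 (60%) held a higher region, against 15.3% of all coding genes. Their median length was 38.4 kb, against 17.2 kb for all coding genes. Dock1, an activator of Rac, held 5 higher regions of 383 to 1649 bp in its 503.0 kb. Among coding genes of 500 kb or longer, 73.1% held a higher region. Prex1, another activator of Rac, held 1 of 961 bp (chromosome 2, 166685182 to 166686142). Cdc42, a small GTPase that acts on the actin cytoskeleton, held 1 of 320 bp (chromosome 4, 137325403 to 137325722). Elmo2 and Rac1 held none.

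Among partner regions with a start window in the table, the region in Pcgf5 came nearest to one. It ended 805 bp upstream of the window of an internal start of that gene, at chr19:36409498-36409797 on the plus strand. This window, from RefSeq on GRCm38.p6, is shown because it is next to the widest region found in Auts2 or its partners, with CpG again in capitals.
Pcgf5: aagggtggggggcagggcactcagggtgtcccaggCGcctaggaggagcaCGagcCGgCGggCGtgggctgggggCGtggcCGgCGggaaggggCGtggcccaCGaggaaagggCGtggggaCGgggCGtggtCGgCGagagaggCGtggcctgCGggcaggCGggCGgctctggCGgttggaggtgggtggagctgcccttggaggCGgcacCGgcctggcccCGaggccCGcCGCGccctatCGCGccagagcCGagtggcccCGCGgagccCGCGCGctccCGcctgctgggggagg
It holds 35 CpG, and 6.95% of the 32851 windows hold as many or more. None of the partner regions overlapped a start window, and Rybp has no entry in that table. Auts2 has no entry either, so its regions were not compared with start windows.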

How the data were processed

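Differential regions of CMS-IP signal between Ogt iKO and control mouse embryonic stem cells (2 CMS-IP and 2 input libraries each, groups taken from the sample titles) were analysed as the authors' deposited lists. Each line holds positions only, with no score or other value, on mm10 per the list names. The submitters' processing notes name Bismark and MACS2 without role or version; the differential test, its threshold, the use of inputs and spike-ins and the pooling of replicates are not given in the sources used here. No region was narrower than 200 bp, and neighbours were at least 1001 bp apart, so closer regions may have been joined. Depth is unknown.

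Starts, 0-based in the lists, are printed 1-based. Spans of genes were read from a RefSeq table of GRCm38.p6, the assembly of mm10 (49595 genes used, 21774 protein-coding; 402 on scaffolds, patches or the mitochondrion left out). Regions were assigned by midpoint to spans extended by 1 kb, and densities use the extended span. Chromosomes were measured from the first to the last gene or region. The region sequences, exons and repeats were not analysed here.

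The gene, the lists of genes and the rules were chosen with earlier results of these data known. Named were genes in and around Auts2, the 5 next longer and 5 next shorter coding genes, the 3 of similar length with most regions, partners holding a region and the 5 genes most alike; Tenm4 and the partners without a region were named after their values were seen. 1 gene that the rule selects is not reported here. No test was made, since every measure comes from the contrast that chose the gene. Counting was tested on simulated data. Python 3.11.15, numpy 2.4.6, pandas 2.3.3 and matplotlib 3.10.9 were used.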

Additional observations from a re-analysis of the deposited data

How the results depend on the processing

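Across 11 results, 58 values were recomputed under other settings; 53 stayed within 1.5 times the value reported. The count in Auts2 stayed at 16 higher and 1 lower when any overlap of 1 bp was used or the span was extended by 0 or 5 kb. With only the wider regions (453 bp, the median of both lists, or more) it was 12 and 1, and 15 and 1 when regions within 10 kb were merged. Auts2 ranked 1 by number among coding genes in every setting that counted regions, and 2 per Mb among genes of 500 kb or longer. The density over the flanks was 1.80 times with flanks of 250 kb, which hold most of the flanking regions, and 4.12 times with 1 Mb. Among the wider regions, the mean of similar-length genes fell from 2.67 to 1.53 higher regions per gene and the partners with a higher region from 10 to 6, since fewer regions are counted. The share of all coding genes with a higher region fell likewise, from 15.3% to 10.3%. Against coding genes of 20 to 150 kb, a range added after seeing the data, the background share was 23.7% in place of 15.3%.

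No paired analysis was possible because the lists give positions without any measurement of single samples; leaving out a replicate was not run, as it needs the same measurements. Regions not listed are not shown to be unchanged, and neither the size of a change nor its error is known.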
